A study of Rattus norvegicus with 100 samples.

Results

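The phase II conjugation enzymes join a small polar group to a foreign or endogenous molecule. Glutathione S-transferases (the Gst genes, and the membrane-bound Mgst genes) add glutathione, UDP-glucuronosyltransferases (Ugt) add glucuronic acid, and sulfotransferases (Sult) add sulfate. In hepatocytes these reactions precede export of the products into bile or blood, and they handle drugs, bile acids, steroids and thyroid hormone. Genes were taken whose symbol starts with Gsta, Gstm, Gstp, Gstt, Gstk, Gsto, Gstz, Mgst, Ugt1, Ugt2 or Sult, with 1 probe set per gene, namely the one of highest mean among those annotated to a single symbol. The arrays held 39 such genes of 13439 genes in all. A log2 intensity above 5 was reached in 3 or more arrays by 32 of them, which were tested within a fit of 8843 genes. They comprised 2 alpha-class (Gsta), 6 mu-class (Gstm), 1 pi-class (Gstp1), 1 theta-class (Gstt2), 1 kappa-class (Gstk1), 2 omega-class (Gsto) and 1 zeta-class (Gstz1) glutathione transferase, 3 Mgst genes, 9 sulfotransferases and 6 Ugt2 genes. Under the filter lay the other 7, Gsta3l1, Gstm6l, Gstp3, Sult1d1, Sult2a1, Sult4a1 and Ugt2b7. A further 9 probe sets carried several symbols (Gsta2 with Gsta5, Gsta4, Gstt1 with Gstt3, Sult1c2 with Sult1c2a, and the Ugt1a genes together), so that no Ugt1 gene was analysed here.

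The cells were primary rat hepatocytes from 4 rats (Rs627, Rs628, Rs631 and Rs632), grown on collagen IV under Geltrex in William E medium. GW7647, which activates the nuclear receptor PPARα, was added at 0.001, 0.01, 0.1, 1 or 10 µM, or not at all (0 µM). RNA was taken after 2, 6, 12, 24 and 72 h. Each of the 100 Affymetrix arrays measured a culture of 1 rat, and a group (1 of 30 pairings of time with concentration) had 2 to 4 arrays, each of another rat. The p-values measure the spread between these cultures. Strain, sex and age of the rats, and the solvent at 0 µM, are not given in the sources used here. PPARα is best known for switching on fatty acid oxidation, and in rodent liver its activators also alter conjugating enzymes.

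The overall signal of an array (its 75th percentile, log2) ran from 6.42 to 7.27, and it lay under 6.6 in 5 arrays. The group means at 24 h were 6.70 ± 0.26 (SD, n = 4) at 1 µM and 6.99 ± 0.11 (SD, n = 3) at 0 µM, and the median change over all 8843 genes there was -0.23. The 3′ minus 5′ signal of beta-actin (log2), a measure of RNA quality, averaged 1.66 ± 0.18 (SD, n = 4) at 72 h and 0 µM. It was 1.97 ± 0.15 (SD, n = 4) at 1 µM and 1.90 ± 0.13 (SD, n = 3) at 10 µM. For GAPDH the same means were 0.35, 0.34 and 0.36. The part of RNA quality in the members' changes was not tested. The 0 µM, 12 h arrays labelled Rs627 and Rs628 each resembled the other rat more than their own. The one labelled Rs627 had a correlation of deviations of 0.77 with Rs628 and -0.02 with Rs627, and the one labelled Rs628 had 0.51 with Rs627 and -0.22 with Rs628. Of 16 hepatocyte markers, 14 lay above 5 in every array at 72 h and 0 µM (Alb averaged 13.67). Cyp2e1 lay under 5 in all 4 (mean 4.25), and Cyp3a2 ran from 4.43 to 6.51 (mean 5.62). Of other cell types in that group, all 7 endothelial markers, 7 of 10 macrophage markers, 6 of 11 stellate cell and fibroblast markers and 3 of 8 bile duct markers lay at or under 5 in every array. Above 5 in every array were the macrophage markers Lyz2 (9.10) and Cd14 (9.08), the stellate and fibroblast markers Tagln (8.15, highest 11.33), Col3a1 (6.25), Acta2 (5.82) and Col1a2 (5.31), and the bile duct marker Epcam (10.41). In RNA of whole cultures, fewer cells of a type and less RNA per cell cannot be told apart.

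The promoters of 5 members with large changes are printed so that their letters can be read beside the values that follow. Each line gives 250 bases of the rat assembly GRCr8 before the 1 start site that the RefSeq promoter table lists for the gene, read 5′ to 3′ on the gene's strand, with matches to the searched motifs in capitals. That start is not the outermost one for every gene. Genes were matched to the promoter table by symbol, and the gene ID that the array annotation gives for Sult1e1 is not in the RefSeq gene table. The stretches of Sult1e1 and Gstp1 lie inside the gene's span in the RefSeq gene table, that of Gstz1 lies partly inside it, and those of Sult2a6 and Sult6b2 lie just before it. The 3 that rose are Sult1e1, Sult2a6 and Gstz1, and the 2 that fell are Sult6b2 and Gstp1.
Sult1e1, chr14:20701230-20701479 (+ strand): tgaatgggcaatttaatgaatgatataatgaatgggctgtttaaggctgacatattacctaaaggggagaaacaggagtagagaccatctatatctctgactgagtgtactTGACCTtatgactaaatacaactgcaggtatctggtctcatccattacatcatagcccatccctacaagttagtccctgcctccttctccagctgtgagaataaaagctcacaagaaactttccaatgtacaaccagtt
Sult2a6, chr1:84097809-84098058 (- strand): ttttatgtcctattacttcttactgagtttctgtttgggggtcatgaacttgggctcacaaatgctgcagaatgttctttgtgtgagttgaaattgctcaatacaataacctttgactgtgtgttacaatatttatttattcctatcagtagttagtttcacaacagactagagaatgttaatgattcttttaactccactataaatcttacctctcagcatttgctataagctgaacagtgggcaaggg
Gstz1, chr6:112525356-112525605 (+ strand): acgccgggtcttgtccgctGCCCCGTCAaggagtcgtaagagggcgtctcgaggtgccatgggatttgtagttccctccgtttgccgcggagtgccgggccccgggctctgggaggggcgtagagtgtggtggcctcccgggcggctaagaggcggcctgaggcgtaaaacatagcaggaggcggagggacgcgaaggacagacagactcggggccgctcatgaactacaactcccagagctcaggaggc
Sult6b2, chr4:177495378-177495627 (- strand): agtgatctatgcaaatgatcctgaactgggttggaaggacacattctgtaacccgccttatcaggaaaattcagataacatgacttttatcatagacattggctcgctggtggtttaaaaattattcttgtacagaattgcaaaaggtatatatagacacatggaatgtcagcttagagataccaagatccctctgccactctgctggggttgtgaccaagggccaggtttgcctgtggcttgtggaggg
Gstp1, chr1:210769706-210769955 (- strand): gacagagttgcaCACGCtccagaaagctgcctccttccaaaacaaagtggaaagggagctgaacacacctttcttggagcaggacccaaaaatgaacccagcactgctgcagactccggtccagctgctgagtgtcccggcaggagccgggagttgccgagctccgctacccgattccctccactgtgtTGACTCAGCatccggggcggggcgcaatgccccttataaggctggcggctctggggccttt
Both strands of 29 members' promoters were searched, the other 3 (Gstt2, Mgst2 and Ugt2a1) having no entry. The double half-site that PPARα binds with its partner RXR (DR1, 2 half-sites 1 base apart) matched 0 of the 29, and 0.368% of all 33469 rat promoters of this length. The single half-site AGGTCA, which such a repeat overlaps, matched 3 members (Gstm1, Sult1e1 and Ugt2b15) and 14.1% of all promoters. In Sult1e1 it lies on the minus strand at -139 to -134 from the listed start site. The antioxidant response core TGACNNNGC, to which NRF2 binds, matched 5 members (Gsta3, Gstm5, Gstm7, Gstp1 and Gstz1) and 10.1% of all promoters. Counted likewise from the listed start sites, its match in Gstp1 lies at -61 to -53, and that in Gstz1 at -231 to -223 on the minus strand. The aryl hydrocarbon receptor core GCGTG matched 7 members and 25.9% of all promoters, and its match in Gstp1 is the capitals nearest the 5′ end. The promoters of Sult2a6 and Sult6b2 held none of these 4 motifs in this window. A match describes letters and is not a bound site.

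Under GW7647 the conjugation enzymes changed mainly at 24 and 72 h and in both directions, as did all genes tested. At 1 µM, 0 of 32 passed the test at 2 h and 0 at 6 h, where 0.373% and 2.04% of all genes did (limma, adjusted p under 0.05). At an unadjusted p under 0.05 there were also 0 at both times. Sult6b2 alone passed at 12 h, as a fall, with 5.41% of all genes. At 24 h 4 members rose and 6 fell (31.2% of the members against 29.6% of all genes), and at 72 h 9 rose and 6 fell (46.9% against 26.8%). The share at 24 h is close to that of all genes, but both depend on the arrays. It was 25% against 14.6% without the low-signal arrays, 28.1% against 16.8% without Rs631 and 21.9% against 9.80% without Rs632. It was under that of all genes without Rs627 (21.9% against 27.9%) and close to it without Rs628 (40.6% against 38.1%). With arrays centred on the median of all probe sets it was 25% against 27.4%. At 72 h it was 31.2% against 17.2% without Rs627. Of all genes, 7.06% rose and 22.6% fell at 24 h, and 11.3% rose and 15.5% fell at 72 h. The median change of the members was -0.16 at 24 h (all genes -0.23) and 0.00 at 72 h (all genes -0.06). In the model with rat as a blocking factor, 2 rose and 4 fell at 12 h, 7 rose and 12 fell at 24 h, and 11 rose and 10 fell at 72 h. The blocked shares were 18.8%, 59.4% and 65.6% of the members, against 11.3%, 49.8% and 40.3% of all genes. Where each array was centred on the median of the tested genes, the split was 7 rises and 2 falls at 24 h, and 9 rises and 3 falls at 72 h. The shares were then 28.1% of the members against 23.6% of all genes at 24 h, and 37.5% against 27.7% at 72 h. All genes then split into 1384 rises and 699 falls at 24 h, against 624 and 1995 as deposited, and into 1291 and 1158 at 72 h, against 998 and 1375. That scaling moves the change of every gene upward by the same amount at a given time, members and others alike. A shift of the split toward rises is thus built in and says nothing particular about the members.

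**Figure D1:**
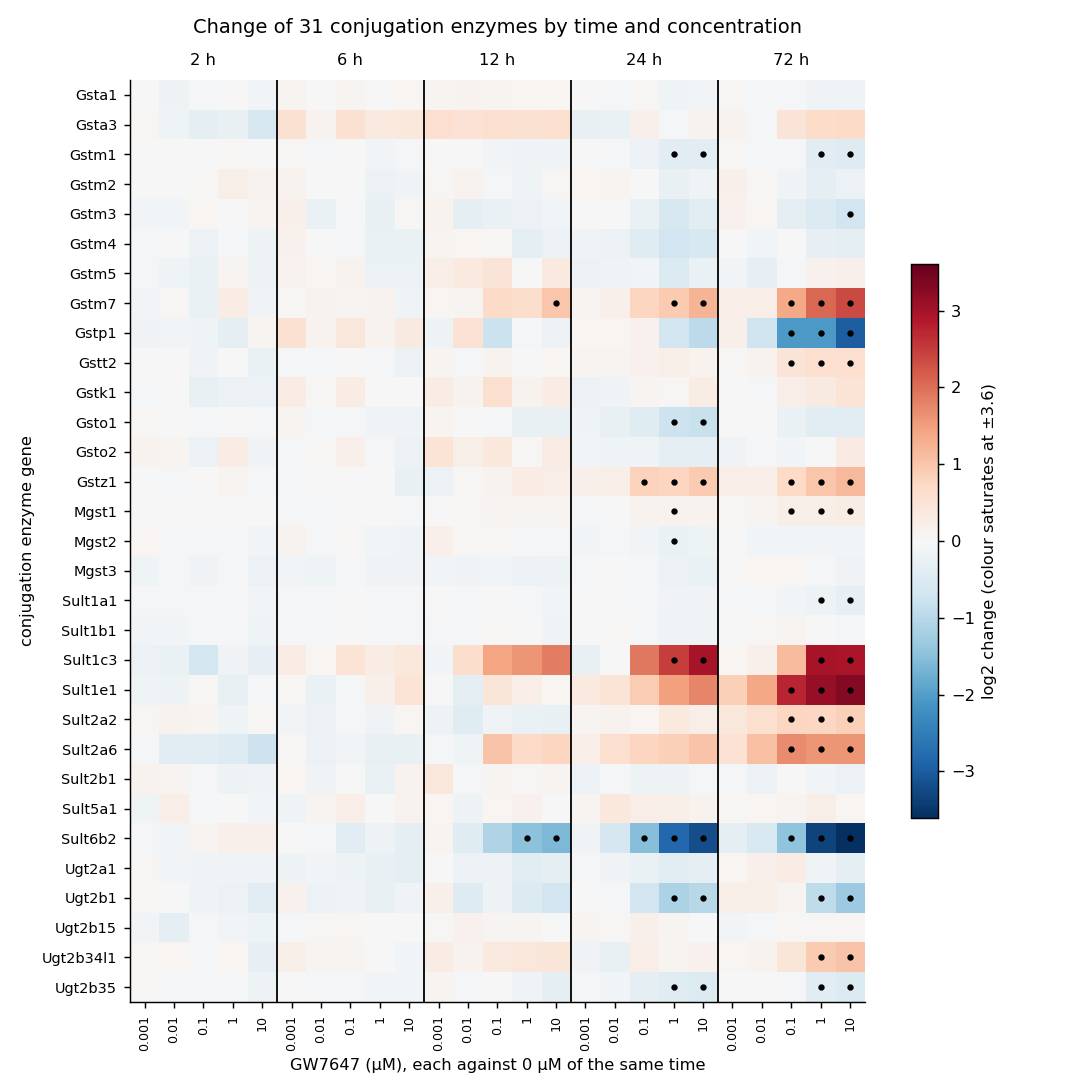
Log2 change of 31 conjugation enzymes (rows, by family) at each time and concentration of GW7647 against 0 µM of the same time (columns); black dots mark changes past the test in the model without the rat. Dots are absent at 2 and 6 h and crowd at 72 h from 0.1 µM upward; Ugt2b is left out because its level depends on the rat.

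The number of changed members increased with concentration at 72 h up to 0.1 and 1 µM. At 0.001 µM 0 of 32 members and 0% of all genes passed, with 1 member higher at an unadjusted p under 0.05. At 0.01 µM 0 members passed, against 0.418% of all genes, although 3 were higher at an unadjusted p under 0.05 and Sult2a2 and Sult2a6 passed with rat as a blocking factor (2.26% of all genes then passed). At 0.1 µM 7 rose and 2 fell (28.1% of the members against 8.82% of all genes). At 10 µM 9 rose and 7 fell (50.0% against 28.0%, of which 12.5% rose and 15.6% fell). The 7 rises at 0.1 µM were Gstm7, Gstt2, Gstz1, Mgst1, Sult1e1, Sult2a2 and Sult2a6, and all 7 were also among the 9 at 1 µM and at 10 µM. The others at 1 µM were Sult1c3 and Ugt2b34l1. The group at 0.1 µM lacked Rs627, and 0.1 and 1 µM were not compared directly. Sult1c3 passed at 0.1 µM too with rat as a blocking factor.

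At the other concentrations, the unblocked model gave these counts before 72 h. At 10 µM 0 members passed at 2 h and at 6 h (1.02% and 4.30% of all genes), 1 rose and 1 fell at 12 h (7.95%), and 3 rose and 5 fell at 24 h (17.1%). Those at 12 h were Gstm7 (1.01) and Sult6b2 (-1.62). Those at 24 h were rises of Sult1c3, Gstm7 and Gstz1 and falls of Sult6b2, Ugt2b1, Gsto1, Ugt2b35 and Gstm1, each of which also passed at 1 µM. At 0.1 µM 0 members passed at 2, 6 and 12 h (0.192%, 0.916% and 1.55% of all genes), and at 24 h Gstz1 rose and Sult6b2 fell (4.32%). At 0.01 µM 0 members passed at 2, 6, 12 and 24 h, where 0.0113%, 0%, 0.0339% and 0.136% of all genes did, and at 0.001 µM 0 members and 0% of all genes did.

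With rat as a blocking factor more of these passed, among the members and among all genes. At 10 µM 2 members fell at 6 h (14.5% of all genes passed), 3 rose and 4 fell at 12 h (16.5%), and 7 rose and 7 fell at 24 h (34.2%). At 0.1 µM 1 rose at 12 h (3.34%), and 4 rose and 4 fell at 24 h (12.9%). At 2 h, and at 0.01 and 0.001 µM before 72 h, 0 members passed in this model too.

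**Figure D2:**
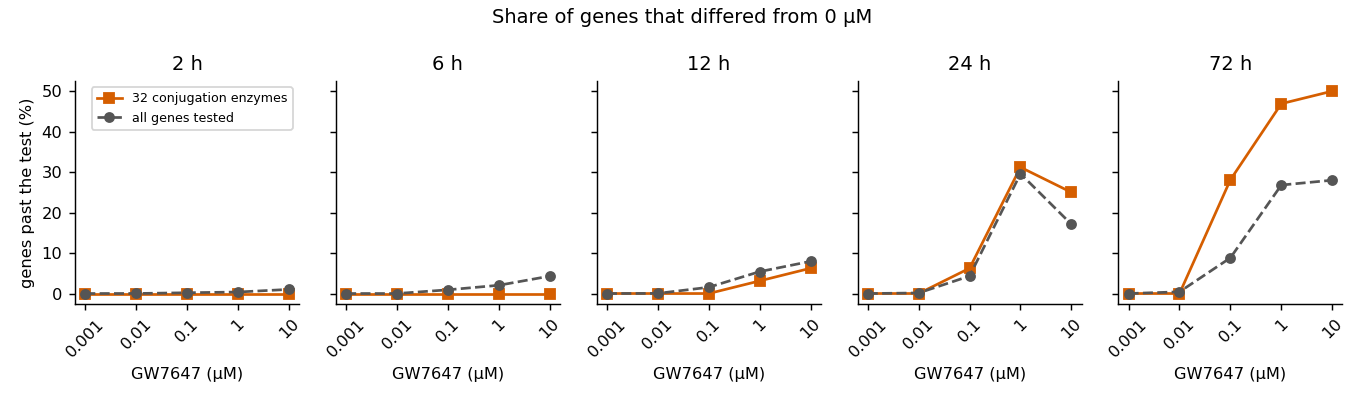
Share of genes past the test (percent) against GW7647 concentration (µM) in 1 panel per time, for the 32 conjugation enzymes (squares) and all 8843 genes tested (circles). At 24 h and 1 µM the lines meet (31.2% and 29.6%), and at 72 h the enzymes reach 46.9% and 50.0% where all genes reach 26.8% and 28.0%.

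Among the sulfotransferases, 4 of 9 rose and 2 fell at 72 h and 1 µM, and the family held the largest changes in both directions. Sult1e1, estrogen sulfotransferase, which inactivates estrogens, rose most. Its log2 intensity at 72 h was 5.95, 4.74, 6.05 and 5.53 at 0 µM in Rs627, Rs628, Rs631 and Rs632, and 9.64, 5.38, 9.07 and 10.73 at 1 µM. Cultures of 3 rats went far above every 0 µM culture, whereas the Rs628 culture at 1 µM stayed within their range. The change was 3.14 ± 0.76 (SE; 8.81-fold, adjusted p = 8.95e-04), or 8.41-fold with lower values raised to 5. It was positive in 4 of 4 rats, from 0.64 in Rs628 to 5.20 in Rs632. With the spread estimated from the arrays of the compared groups alone, the adjusted p was 0.0511. At 0.1 µM the rise was 2.74 ± 0.82 (adjusted p = 0.0229) and at 10 µM 3.30 ± 0.82 (adjusted p = 0.00114). Between 0 and 0.1 µM the levels climbed stepwise in Rs632, with 5.53, 6.88, 7.95 and 10.24 at 0, 0.001, 0.01 and 0.1 µM. At 24 h and 1 µM the change of 1.49 ± 0.82 did not pass (adjusted p = 0.155), but it passed with rat as a blocking factor (1.91, adjusted p = 0.00715).

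Sult1c3 went from near the floor to a clear signal. At 72 h it was 3.87, 3.91, 6.59 and 4.30 at 0 µM in Rs627, Rs628, Rs631 and Rs632, and 7.82, 6.78, 9.32 and 6.67 at 1 µM. The groups did not overlap, and Rs631 was highest in both. The change was 2.98 ± 0.82 (7.88-fold, or 4.75-fold with lower values raised to 5, adjusted p = 0.00360), and it lay between 2.37 and 3.95 within the 4 rats. Without Rs627 the adjusted p was 0.0811. It was already higher at 24 h (2.50 ± 0.89, adjusted p = 0.0263), with 7.33, 7.52, 9.09 and 7.19 at 1 µM and 4.58, 6.90 and 4.35 at 0 µM. That call at 24 h was lost in 5 alternatives, among them without the low-signal arrays (adjusted p = 0.179). At 12 h the change of 1.60 ± 0.89 passed with rat as a blocking factor alone (adjusted p = 4.18e-08), as at 0.1 µM at 72 h (1.13 ± 0.89 without the block, block adjusted p = 0.00131).

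Sult2a6 and Sult2a2 belong to the class that sulfates hydroxysteroids and bile acids. Sult2a6 at 72 h was 8.26, 7.69, 8.36 and 9.16 at 0 µM in Rs627, Rs628, Rs631 and Rs632, and 9.89, 9.65, 9.74 and 10.53 at 1 µM. Every 1 µM culture was above every 0 µM culture. The change was 1.58 ± 0.39 (adjusted p = 0.00117) at 1 µM, 1.71 ± 0.42 at 0.1 µM (adjusted p = 0.00427) and 1.58 ± 0.42 at 10 µM (adjusted p = 0.00246). At 0.01 µM it was 1.08 ± 0.39, positive in 4 of 4 rats, and passed with rat as a blocking factor alone (adjusted p = 0.00446 against 0.304 without). Sult2a2, which lay near the floor, was 5.07, 4.48, 4.74 and 4.92 at 0 µM and 5.37, 5.34, 5.73 and 5.72 at 1 µM. It rose by 0.74 ± 0.18 (1.67-fold, or 1.43-fold with lower values raised to 5, adjusted p = 7.97e-04).

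Sult6b2 fell most of the members, from 9.48, 9.54, 9.56 and 9.40 at 0 µM and 72 h to 6.29, 6.90, 5.81 and 5.71 at 1 µM in Rs627, Rs628, Rs631 and Rs632. The 0 µM cultures were closely alike, and each treated culture was far below them. The change was -3.32 ± 0.35 (9.98-fold lower, adjusted p = 2.02e-12). At 10 µM it was 6.25, 4.63 and 3.78 in Rs628, Rs631 and Rs632 (-4.61 ± 0.38, adjusted p = 5.47e-17), which is 16.9-fold lower with smaller values raised to 5. At 0.1 µM it was 8.10, 8.16 and 7.86 in those rats (-1.46 ± 0.38, adjusted p = 0.00658). In the model without the rat, Sult6b2 also passed earlier than any other member at 1 µM. It fell by 1.48 on the log2 scale at 12 h (SE 0.38, adjusted p = 0.00627) and by 2.82 at 24 h (SE 0.38, adjusted p = 1.20e-08). With rat as a blocking factor 2 members rose and 4 fell at 12 h and 1 µM (18.8%, against 11.3% of all genes). The 12 h call of Sult6b2 was kept in 12 of 17 alternatives. Among those that lost it were the limma fits without Rs627 (adjusted p = 0.143) and without Rs631 (adjusted p = 0.132). The change of Sult6b2 was -1.39 without the 0 µM arrays of Rs627 and Rs628 named above. That left only the Rs631 array at 0 µM, so this size does not show that the call holds. Averaged over the 5 times Sult6b2 was the member with the lowest p at 1 µM (-1.52 ± 0.17, adjusted p = 4.09e-12).

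Sult1a1, the phenol sulfotransferase, fell little. It was 12.45, 12.38, 12.35 and 12.49 at 0 µM and 12.30, 12.34, 12.11 and 12.15 at 1 µM at 72 h. The change was -0.19 ± 0.06 (adjusted p = 0.0163), and it was -0.12 (adjusted p = 0.481) after centring on the median of the tested genes. Sult1b1, which sulfates thyroid hormone, had -0.01 (95% interval -0.17 to 0.15). Sult2b1, which sulfates cholesterol, had -0.10 (-0.51 to 0.31), and Sult5a1, above 5 in 3 arrays of the 100, had 0.21 (-0.10 to 0.52).

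**Figure D3:**
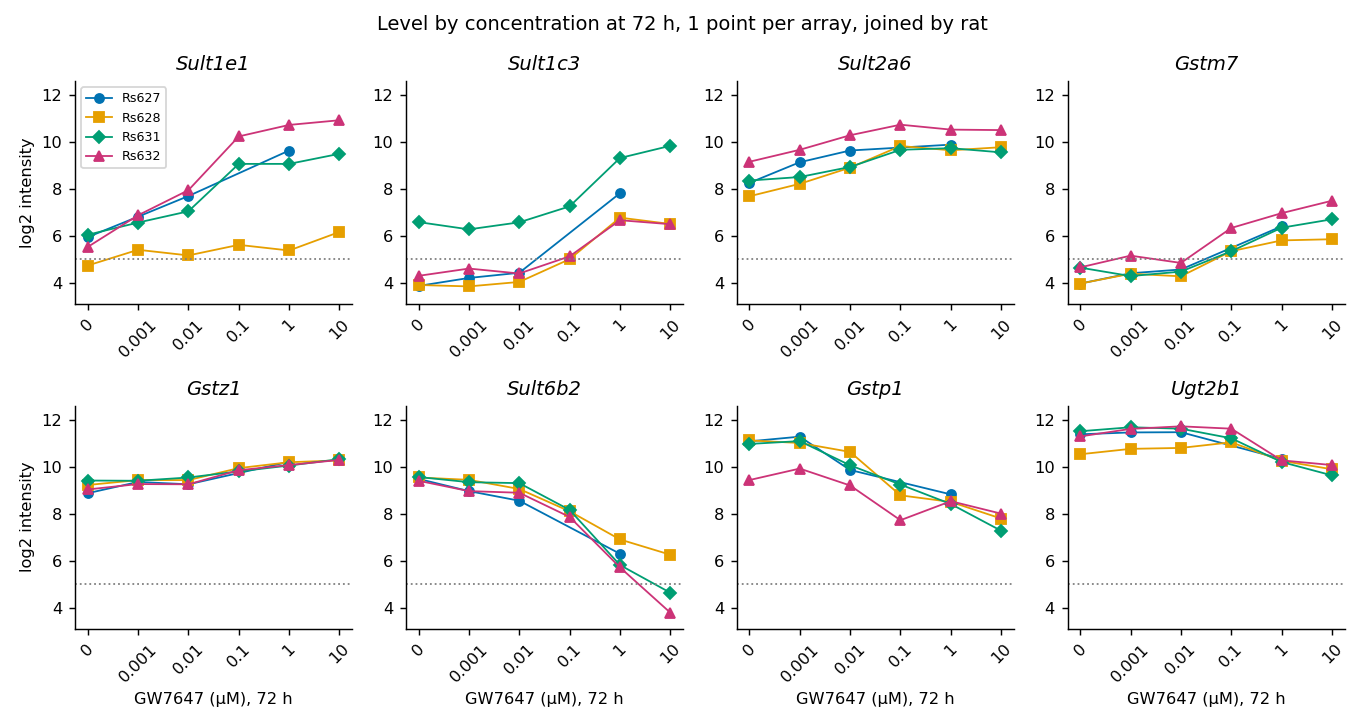
Log2 intensity at 72 h against GW7647 concentration (µM) for 8 members, 1 point per array, joined by rat (colour and symbol); the dotted line is the floor of 5. Sult6b2 falls stepwise over the 3 highest concentrations in Rs628, Rs631 and Rs632. Rs627 has only 1 µM of these, and its Sult6b2 level is lowest there. Sult1e1 climbs in 3 rats but stays between 4.74 and 6.17 in Rs628.

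Of the soluble glutathione transferases, Gstm7, Gstz1 and Gstt2 rose at 72 h and 1 µM. Gstm7, of the mu class, was 3.97, 3.97, 4.65 and 4.66 at 0 µM in Rs627, Rs628, Rs631 and Rs632, and 6.41, 5.81, 6.35 and 6.97 at 1 µM. All 4 arrays at 0 µM were under 5 and all 4 at 1 µM above it. It was at least 2.61-fold higher (2.07 ± 0.25 as measured, adjusted p = 3.03e-10), and at 0.1 µM at least 1.60-fold (1.37 ± 0.27, adjusted p = 2.07e-04). At 24 h the measured change was 0.94 ± 0.27 (adjusted p = 0.00631). Without Rs627 it was 0.74 and did not pass (adjusted p = 0.103), nor did it with the compared groups alone (adjusted p = 0.0851). Over the 5 times at 0 µM its mean went from 5.05 at 2 h to 4.31 at 72 h, a difference that did not pass the test (adjusted p = 0.120, and 0.0402 with rat as a blocking factor).

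Gstz1, maleylacetoacetate isomerase of tyrosine breakdown, was 8.87, 9.22, 9.41 and 9.03 at 0 µM and 10.21, 10.19, 10.05 and 10.07 at 1 µM. The groups did not overlap, and the treated cultures lay within a narrow band. The change was 1.00 ± 0.18 (1.99-fold, adjusted p = 1.25e-05), with 0.73 ± 0.20 at 0.1 µM and 1.16 ± 0.20 at 10 µM. At 24 h it had risen by 0.78 ± 0.20 at 1 µM (adjusted p = 0.00197) and by 0.82 ± 0.21 at 0.1 µM (adjusted p = 0.00987). Gstt2, of the theta class, rose by 0.60 ± 0.13 (adjusted p = 1.59e-04), from 7.88, 7.67, 8.16 and 7.86 to 8.60, 8.35, 8.30 and 8.70.

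Gstp1, the pi-class enzyme that is scarce in normal adult rat hepatocytes and rises when they dedifferentiate, fell at 72 h. It was 11.08, 11.12, 10.97 and 9.43 at 0 µM in Rs627, Rs628, Rs631 and Rs632, and 8.82, 8.50, 8.41 and 8.53 at 1 µM. The treated cultures were alike, and Rs632 stood well under the other 0 µM cultures. The change was -2.08 ± 0.60 (4.24-fold lower, adjusted p = 0.00524), with -2.07 ± 0.64 at 0.1 µM (adjusted p = 0.0294) and -2.96 ± 0.64 at 10 µM (7.81-fold lower, adjusted p = 1.80e-04). Within rats at 1 µM the fall was 2.26, 2.62 and 2.56 in Rs627, Rs628 and Rs631, and 0.89 in Rs632. The adjusted p was 0.0558 without Rs627 and 0.0647 without Rs628. At 24 h the change of -0.70 ± 0.64 did not pass (adjusted p = 0.403, and 0.0821 with rat as a blocking factor). Since bile duct cells also express Gstp1, their markers are given beside it. The summed intensity of 8 bile duct markers at 72 h ran from 947 to 2670 at 0 µM and from 842 to 1330 at 1 µM. Of the 6 that were tested 0 passed (adjusted p from 0.184 to 0.650). Krt7 and Krt19 averaged 4.64 and 5.11 at 0 µM and 3.96 and 4.07 at 1 µM, and Epcam had -0.50 (adjusted p = 0.267) and Prom1 -1.78 (adjusted p = 0.184). The last pair passed with rat as a blocking factor (2.07e-06 and 5.87e-04). Of the 8, 3 lay at or under 5 in every array at 0 µM, 4 at 1 µM and 6 at 10 µM. Their part in the change of Gstp1 was not tested.

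Of the other mu-class genes, those that passed were lower. Gstm1 was 12.62, 12.74, 12.72 and 12.61 at 0 µM and 12.27, 12.37, 12.47 and 12.09 at 1 µM at 72 h, a change of -0.37 ± 0.07 (adjusted p = 2.60e-05). After centring on the median of the tested genes it was -0.30 and no longer passed (adjusted p = 0.0627). At 24 h its change of -0.41 ± 0.08 (adjusted p = 2.87e-05) was -0.12 (adjusted p = 0.545) after centring on the median of the tested genes. Gstm3 passed at 10 µM (-0.69 ± 0.27, adjusted p = 0.0465) and had -0.49 ± 0.25 at 1 µM. Gstm2 (-0.33), Gstm3 and Gstm4 (-0.30) passed at 1 µM with rat as a blocking factor alone, with adjusted p of 0.0179, 0.0283 and 0.00344. Gstm5 had 0.16 (95% interval -0.50 to 0.81). The 6 mu-class genes thus held 1 rise and 1 fall, with changes from -0.49 to 2.07.

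Gsto1, an omega-class enzyme that acts as a thiol transferase, fell at 24 h but not past the test at 72 h. At 24 h it was 10.26, 10.27 and 9.97 at 0 µM in Rs627, Rs631 and Rs632, and 9.49, 9.33, 9.82 and 9.0 at 1 µM in Rs627, Rs628, Rs631 and Rs632. The change was -0.75 ± 0.18 (adjusted p = 0.00119), and -0.46 (adjusted p = 0.105) after centring on the median of the tested genes. At 72 h it was -0.39 ± 0.17 (adjusted p = 0.0804, and 2.53e-05 with rat as a blocking factor). Gsto2 had 0.01 at 72 h (95% interval -0.42 to 0.44). Of the alpha class, Gsta1 had -0.14 (-0.40 to 0.12) and Gsta3 had 0.65 ± 0.59. Gsta3 was higher in 4 of 4 rats, by 0.17 to 1.05, and passed with the block alone (adjusted p = 0.00817). Gstk1, found in mitochondria and peroxisomes, had 0.31 ± 0.60, positive in 4 of 4 rats by 0.24 to 0.37, and likewise passed with the block alone (adjusted p = 0.0325).

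Mgst1, a glutathione transferase of the endoplasmic reticulum and outer mitochondrial membrane, rose slightly. It was 12.65, 12.54, 12.64 and 12.62 at 0 µM and 12.85, 12.84, 12.76 and 12.86 at 1 µM at 72 h. The groups did not overlap, and the change was 0.22 ± 0.04 (1.16-fold, adjusted p = 1.68e-05). At 0.1 µM it was 0.22 ± 0.04 and at 10 µM 0.28 ± 0.04. Mgst2 had -0.11 at 72 h (95% interval -0.28 to 0.06) and passed at 24 h (-0.24 ± 0.09, adjusted p = 0.0399), a call lost in 9 alternatives, with a sign of 0.05 after centring on the median of the tested genes. Mgst3 had -0.07 at 72 h (-0.27 to 0.14).

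Of the 6 Ugt2 genes, whose enzymes glucuronidate steroids, bile acids and drugs, 1 rose and 2 fell at 72 h and 1 µM. Ugt2b1 was 11.38, 10.53, 11.51 and 11.29 at 0 µM in Rs627, Rs628, Rs631 and Rs632, and 10.33, 10.25, 10.20 and 10.27 at 1 µM. Each rat's treated culture was below its own 0 µM culture, by least in Rs628. The change was -0.92 ± 0.25 (1.89-fold lower, adjusted p = 0.00327). The adjusted p was 0.0553, 0.0641 and 0.0554 without Rs627, Rs631 and Rs632. At 10 µM, where Rs627 had no array, the change was -1.32 ± 0.27 (adjusted p = 7.43e-05), with 9.89, 9.63 and 10.07 in Rs628, Rs631 and Rs632. Whether the changes at 10 and 1 µM differed at 72 h was not tested. At 24 h and 1 µM the change was -1.15 ± 0.27 (adjusted p = 8.15e-04).

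Ugt2b35 fell by 0.41 at 72 h (SE 0.11, adjusted p = 0.00404), from 12.06, 11.75, 12.07 and 12.18 to 11.61, 11.53, 11.55 and 11.76. The groups overlap only where Rs632 at 1 µM meets Rs628 at 0 µM. The adjusted p was 0.0560 without Rs627, 0.0793 without Rs631 and 0.0923 after centring on the median of the tested genes. Ugt2b34l1 rose by 0.94 ± 0.22 (1.92-fold, adjusted p = 6.87e-04), from 5.67, 5.15, 5.88 and 5.61 to 6.64, 6.40, 6.32 and 6.68. Ugt2b15 had 0.05 (95% interval -0.14 to 0.25). Ugt2a1, first known from the nose, lay at or under 5 in all 8 of these arrays. Members of these families have close relatives, and whether a probe set also binds a relative's transcript was not tested.

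**Figure D4:**
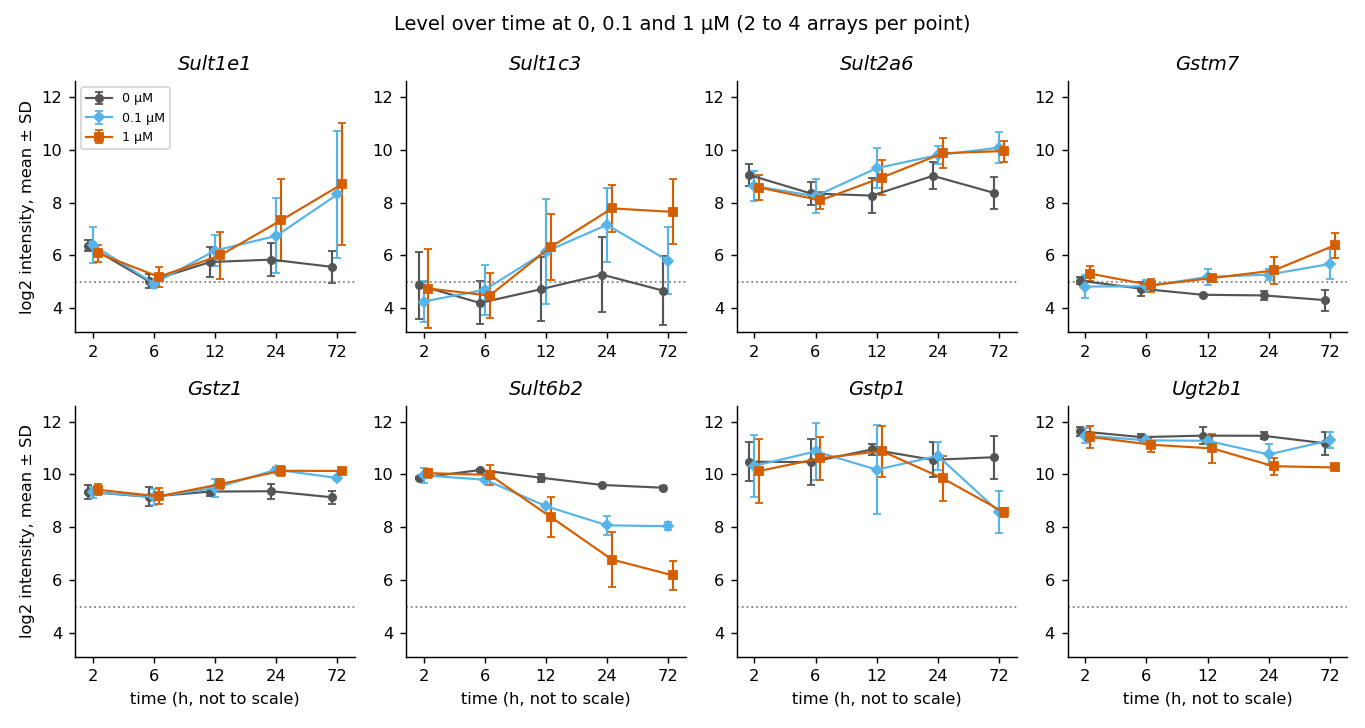
Log2 intensity (mean ± SD over 2 to 4 arrays) against time (h) for 8 members at 0 µM (grey circles), 0.1 µM (blue diamonds) and 1 µM (orange squares); the dotted line is the floor of 5. None of the 8 differed past the test at 2 or 6 h, and at 72 h Sult6b2 averages 9.50 at 0 µM and 6.18 at 1 µM.

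Whether the change at 1 µM differed between 72 and 2 h was tested directly. The difference passed for 9 of 32 members (28.1%, against 8.66% of all genes). It was positive for Sult1e1 (3.42 ± 1.16, adjusted p = 0.0499), Sult2a6 (2.05 ± 0.60, 0.0183), Gstm7 (1.81 ± 0.38, 6.17e-04), Gstz1, Sult2a2, Gstt2 and Mgst1. It was negative for Sult6b2 (-3.50 ± 0.53, adjusted p = 1.16e-06) and Gstm1 (-0.41 ± 0.11, adjusted p = 0.00775). With rat as a blocking factor 14 passed (43.8%, against 17.9% of all genes), the further ones being Sult1c3, Gstp1, Ugt2b1, Ugt2b35 and Gsto1. In cultures at 0 µM the median change of the members from 2 to 72 h was -0.20 (all genes -0.17). Ugt2a1 alone passed (-0.68, adjusted p = 0.0219), which is 3.12% of the members against 3.40% of all genes, and 4 members passed with rat as a blocking factor (12.5%, against 13.0% of all genes). Both means of Ugt2a1, 5.02 and 4.34, lie near the floor.

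Averaged over the 5 times, 1 µM gave 8 rises and 10 falls (56.2% of the members against 35.4% of all genes) and 10 µM 6 rises and 11 falls (53.1% against 39.4%). At 0.1 µM 4 rose and 1 fell (14.3% of all genes passed), or 6 and 5 with rat as a blocking factor (34.4% of the members against 28.4% of all genes), and at 0.01 and 0.001 µM 0 members passed, against 0.690% and 0% of all genes. At 0.01 and 0.001 µM 0 members reached even an unadjusted p under 0.05. After centring on the median of the tested genes the split was 8 rises and 3 falls at 1 µM, and 8 rises and 4 falls at 10 µM. The members' shares were then near those of all genes, with 34.4% against 33.2% at 1 µM and 37.5% against 37.7% at 10 µM. All genes then split into 1569 rises and 1370 falls at 1 µM, and into 1822 and 1514 at 10 µM. The falls lost at 1 µM were those of Gstm1, Gstm3, Mgst2, Mgst3, Sult1a1, Ugt2a1 and Ugt2b35, all under 0.35 in size. Those of Sult6b2, Ugt2b1 and Gsto1 passed, and that of Gsto1 (-0.32 as deposited) was also under 0.35 in size.

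Between 10 and 1 µM, averaged over times, 0 members and 0% of all genes passed the test in limma. At an unadjusted p under 0.05 there was 1 member, Sult6b2, lower at 10 µM by 0.39 (95% interval -0.73 to -0.06). The interval of the difference was -0.57 to 0.90 for Sult1e1, -0.67 to 0.91 for Sult1c3, -0.38 to 0.37 for Sult2a6, -0.18 to 0.30 for Gstm7, -0.21 to 0.14 for Gstz1 and -0.70 to 0.45 for Gstp1.

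Several members differed between rats in level over all their arrays. Ugt2b was near or under the floor in Rs632, where its 27 arrays ran from 2.41 to 6.11 (median 3.20), while the 73 arrays of the other 3 rats ran from 11.43 to 12.28. A second Ugt2b probe set showed the same, with 3.29 to 4.71 in Rs632 and 8.71 to 10.84 in the others. Fitted changes of Ugt2b between groups follow which rats they hold. In Rs627, Rs628 and Rs631 it was 11.70, 12.06 and 11.83 at 0 µM and 72 h, and 11.61, 11.99 and 11.53 at 1 µM. Sult1c3 exceeded 5 in all 30 arrays of Rs631, and in 5 of 22, 8 of 21 and 6 of 27 arrays of Rs627, Rs628 and Rs632. Gstk1 averaged 10.01 ± 0.14 (SD, 30 arrays) in Rs631 and 8.19 to 8.65 in the other 3 rats. Gsta3, Gstm2, Gstm4 and Gstm5 were also highest on average in Rs631, and Gstp1 was lowest on average in Rs632 (9.31 ± 0.62, SD, 27 arrays). At 72 h and 1 µM, however, Gstp1 was alike in all rats, and Rs632 was not the lowest. The averages pool all arrays of a rat, and Rs627, Rs628 and Rs632 lack some times or concentrations. Each rat is 1 animal, so these are descriptions without a test.

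**Figure D5:**
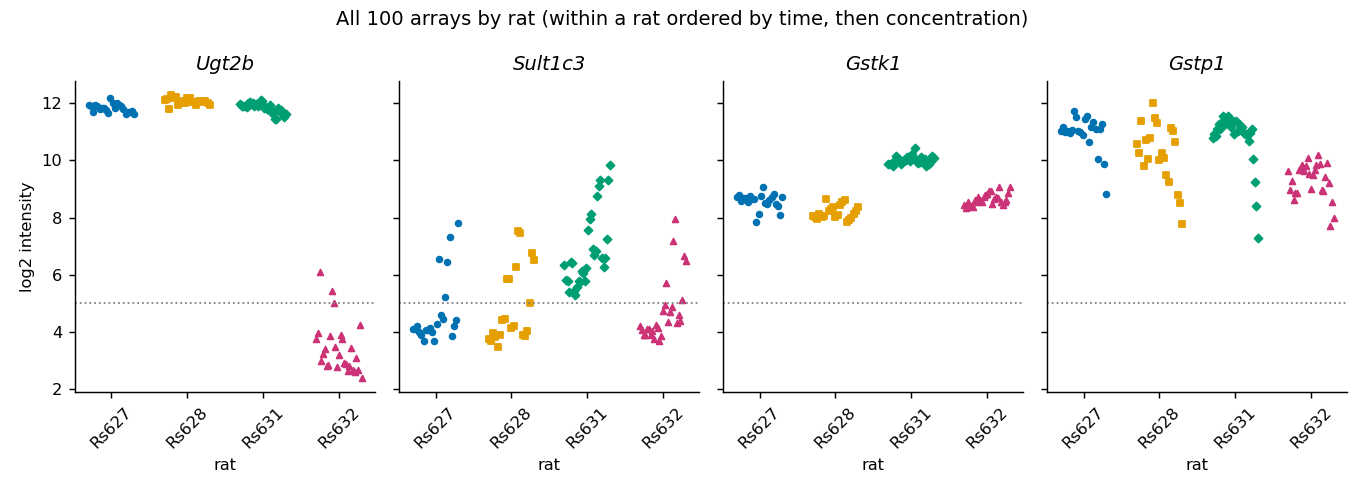
Log2 intensity of 4 members in all 100 arrays, in 1 column per rat and ordered within it by time and then concentration; the dotted line is the floor of 5. Ugt2b in Rs632 lies between 2.41 and 6.11 where the other rats lie above 11, and Gstk1 in Rs631 lies above 9.8 where the others lie under 9.1.

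Genes around these enzymes, from lists chosen with earlier results known, were read from the same model at 72 h and 1 µM, where 26.8% of all genes passed. Of 9 transporters of conjugates 0 rose and 4 fell, all of the ABCC family of exporters. Abcc2, which moves conjugates into bile, had -2.42 ± 0.37 (adjusted p = 2.48e-07), Abcc4 -1.16 ± 0.30, Abcc3 -0.82 ± 0.28 and Abcc1 -0.60 ± 0.23. The list median was -0.02. Of 6 genes of the supply of PAPS, the sulfate donor, 1 rose and 2 fell. Slc26a1, a sulfate carrier, had -1.06 ± 0.15 (adjusted p = 2.72e-08), Papss1, which makes PAPS, -0.75 ± 0.26, and Bpnt1, which clears its spent product, 0.47 ± 0.16. Of 10 genes of glutathione synthesis and turnover 2 rose and 2 fell. Cbs, which feeds cysteine synthesis, had 1.44 ± 0.18 (adjusted p = 5.56e-10) and Oplah 0.96 ± 0.22. Gss and Gclc, which carry out the steps of glutathione synthesis, had -0.86 ± 0.14 and -0.42 ± 0.13. Of 4 genes supplying UDP-glucuronic acid 0 passed in limma (adjusted p from 0.0716 to 0.219), although Pgm1, Ugp2 and Ugdh passed with rat as a blocking factor.

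Of 8 xenosensors and their partners, the receptors and factors that control many conjugating enzymes, 5 rose and 1 fell. Nr1i3, the receptor CAR, had 2.57 ± 0.42 (adjusted p = 1.28e-06), with a mean of 4.57 at 0 µM and 7.14 at 1 µM. Nr1i2, the receptor PXR, had 1.06 ± 0.24, Nr1h4, the bile acid receptor FXR, 1.14 ± 0.27, Ppara 0.63 ± 0.20 and Keap1, the inhibitor of NRF2, 0.34 ± 0.13. Nfe2l2, which encodes NRF2, had -0.68 ± 0.14 (adjusted p = 1.21e-04). Of 7 deconjugating enzymes and hydrolases 2 rose and 2 fell. Gusb, β-glucuronidase, had -0.45 ± 0.13, Asah1 -0.45 ± 0.11, Arsa 0.37 ± 0.14 and Ephx2, soluble epoxide hydrolase, 2.46 ± 0.28. Of 8 other transferases 2 rose, Pemt (2.27 ± 0.32) and Gnmt (1.02 ± 0.29), both methyltransferases. Hepatocyte markers were split, with 5 rises and 5 falls of 16 and a median of 0.05, and Alb had 0.05. Of the other cell types' markers that were tested, Lyz2 (-2.13), Col1a2 (-0.75) and Acta2 (-0.55) fell and Cd14 rose (0.83), and their part in the members' changes was not tested.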

How the data were processed

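Total RNA was amplified and biotin-labelled with a 3′ kit and hybridised to Affymetrix rat arrays, per the labels' protocols. Each deposited number is a log2 intensity of a probe set and was used unscaled. The submitters' processing notes name GCRMA and Partek, and give neither their versions nor what each did. Of 31139 probe sets 19069 had a single symbol (61.2%), and 18989 of those were found by gene ID in the RefSeq gene table (GRCr8). All 100 arrays entered a limma 3.58.1 fit of 30 group means in R 4.3.3 (70 residual degrees of freedom, moderated variances, two-sided, Benjamini-Hochberg over 8843 genes per comparison, 0.05). Values ± are SE of a change unless given as SD. A fold is a lower bound ("at least"), with values raised to 5, where all arrays of a group lie under 5. Arrays have no read depth, and their number limits the precision. On simulated data for 72 h and 1 µM, run on 8843 genes, 37% of changes of 0.5 (log2) and 81% of changes of 1 were recovered. Only 100 genes of each size were changed there, and the noise was independent between arrays, without a rat effect. In the data 26.8% of all genes passed and arrays of a rat are correlated. The recovered shares therefore do not give the power of the fit on these data.

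Compared with 0 µM were 1 µM at each time and each concentration averaged over times; further comparisons were 10 against 1 µM, 72 against 2 h, the difference of the changes at 72 and 2 h, and the further times and concentrations. Each rat gave many cultures, so arrays are paired by animal, per the labels; the fit with the replicate block (rat) is the paired alternative. Deviations from group means correlated by 0.62 (median) within a rat, 0.52 in the lowest rat, and -0.23 between rats. Other alternatives changed the scaling, filter, probe set rule, variance prior or arrays. Plates and batches are not named in the labels, so values within them could not be computed; arrays at repeated positions (23) or with labels ending in 2 (5) were left out instead. Figures used matplotlib 3.10.9 and Python 3.11.15.

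Members and lists were chosen with earlier results of these data known. Every member may be named, and array values are given for the members with the largest calls and for others described; all other members are given by their change.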

Additional observations from a re-analysis of the deposited data

Results flagged for a closer look

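Some single cultures lay far from the others of their group of 4 at 72 h. They are Gstp1 in Rs632 at 0 µM (9.43), Sult1c3 in Rs631 at 0 µM (6.59), and Ugt2b in Rs632 at 0 µM (2.69) and at 1 µM (4.25). The gap to the nearest culture exceeded Dixon's 95% critical value for each of these, which are 4 of 26 pairings of a gene with a group. The pairings share the same cultures, and Ugt2b, whose level depends on the rat, was added to those checked. The count therefore cannot be set against chance. Over all its arrays Rs632 had a median of 9.48 for Gstp1 and 3.20 for Ugt2b, and Rs631 a median of 6.43 for Sult1c3.

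The change at 1 µM differed between 72 and 2 h, by a test of the difference, for 9 members. The difference (72 h minus 2 h, log2) was 3.42 for Sult1e1, 2.05 for Sult2a6, 1.81 for Gstm7, 0.91 for Gstz1, 0.89 for Sult2a2, 0.62 for Gstt2 and 0.23 for Mgst1, and -3.50 for Sult6b2 and -0.41 for Gstm1. For Sult1e1 the adjusted p of 0.0499 (limma) lies at the threshold, and it exceeded 0.05 in 8 alternatives.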

How the results depend on the processing

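Calls at 0.1 and 10 µM at single times were run only with the block. Of the members' other changes past the test, Mgst2 at 24 h and 1 µM changed sign (0.05, centring on the median of the tested genes) and no other did in the 17 alternatives. With rat as a block (pairing by animal) 6 members passed at 1 µM at 12 h and 19 at 24 h, 11 at 0.1 µM averaged over times, 4 for 72 against 2 h at 0 µM, and 14 for the difference of changes; the other 8 counts stayed within 1.5 times. The count at 12 h was 2 with an intensity trend, and 0 with the compared groups alone, without arrays at repeated positions and without the 12 h, 0 µM arrays of Rs627 and Rs628. With the compared groups alone 3 passed at 24 h and 1 at 0.01 µM averaged over times. For 72 against 2 h the count was 0 with quantile normalization, median centring, the filter at log2 7 and the compared groups alone, and 2 with no filter, an intensity trend, and without low-signal arrays or those at repeated positions. Centring on the median of the tested genes, chosen after seeing the data, gave 11 at 1 µM averaged over times (34.4%, against 33.2% of all genes). It gave 0 for 72 against 2 h. Leaving out each rat in turn gave 0 to 1 at 12 h, 7 to 13 at 24 h, 10 to 15 at 72 h, 10 to 16 at 1 µM, 11 to 16 at 10 µM and 2 to 6 at 0.1 µM averaged, 0 to 1 for 72 against 2 h, and 4 to 6 for the difference of changes. All-gene shares then ran from 3.21% to 8.24% at 12 h, 9.8% to 38.1% at 24 h and 17.2% to 24.7% at 72 h. They ran from 21.2% to 38.8% at 1 µM, 24.4% to 43.3% at 10 µM and 6.84% to 19.1% at 0.1 µM averaged. For 72 against 2 h they were 0.645% to 2.21%, and for the difference of changes 3.43% to 6.99%. Without Rs627, 21.9% of the members passed at 24 h and 31.2% at 1 µM averaged, against 27.9% and 28.6% of all genes. Counts at 1 µM fell to 10 at 72 h and 10 averaged over times without Rs627, and to 11 averaged without Rs632. Without Rs627 the averaged counts were 11 at 10 µM and 2 at 0.1 µM; at 0.1 µM 3 passed without Rs632. The 12 h call was lost without Rs627 or Rs631. The count for the difference of changes was 4 without Rs627 or Rs632, 5 without Rs628 and 6 without Rs631. Of the all-gene calls at 24 h and 1 µM, 624 were higher and 1995 lower as deposited, and 1384 and 699 after that centring, which moves the median of all genes from -0.23 to 0.06. The number of arrays, 2 to 4 a group, limits small changes.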
